A study of Mus musculus with 12 samples.

Results

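Very long neuronal genes are 33 genes of the mouse brain, each of which spans a very long stretch of mostly intronic DNA. Many of them code for adhesion molecules, ion channels or their partners, and synaptic scaffolds. They were taken as a fixed list of symbols: Rbfox1, Csmd1, Csmd3, Dlg2, Lsamp, Nrxn3, Cntnap2, Ptprd, Macrod2, Ctnna2, Ctnna3, Dmd, Magi2, Fgf14, Kcnip4, Dpp10, Opcml, Cdh13, Sgcz, Pcdh9, Fhit, Immp2l, Lrp1b, Prkg1, Auts2, Erbb4, Grm7, Tenm2, Nkain2, Kcnma1, Asic2, Lrrc4c and Dab1. Their annotated spans ran from 699 kb (Fgf14) to 2271 kb (Ptprd), with a median of 1201 kb. The tables list 55471 gene identifiers, each called a feature here. The members are described by their own rows and by 106 features that have at least 50% of their exon bases inside a member on the opposite strand. Counts of these features were treated as reads of the member that surrounds them, and 30 of the 33 members hold at least 1. In the whole annotation 6259 genes surround such a feature, and they are called hosts here.

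Adult male C57BL6JL mice aged 3 to 5 months were either naive or killed 90 min after maximal electroconvulsive stimulation (MECS), an 85 mA current given for 1 s that produces a generalized convulsion. No genotype, transgene or other drug is named, and the tissue was cortex mixed with hippocampus. The lysates had been exposed to ultraviolet light (400 mJ/cm2), which links RNA to the proteins that touch it. Input RNA came from the lysate, and U1 RNA was recovered with an antibody to U1-70K, one of the proteins that make up the U1 snRNP, a small RNA-protein particle of the spliceosome. Input and U1 RNA of naive and of MECS brain, 4 groups, had 3 libraries each, 12 in all. No control precipitate was included, and the U1 to input ratio is therefore one of recovered RNA and not a measure of binding. Shared title prefixes tie each U1 library to an input library, called a pair here. The labels do not say whether a pair is 1 animal or a pool, and p-values measure only the spread between these libraries.

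U1 snRNP pairs with the 5′ splice site at the start of an intron. It is also known to keep polyadenylation signals inside introns from being used, an activity on which long transcripts depend, because a polymerase that must cross a long intron passes many such signals. Neurons express an unusual number of very long genes, and synaptic adhesion and ion channel genes are prominent among them. The series asks whether stimulation of neurons changes U1 binding and intronic polyadenylation.

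Gene counts per library ran from 704432 (naive input 2) to 1962312 (naive U1 2), and 20865 to 26166 features had a count. Only 1.42 to 1.84% of listed reads were counted in genes, and 88.3 to 91.3% lay in no gene. Neuronal markers were present, with 4 of 8 (Syt1 among them) holding features inside that summed to 1944 to 2260 CPM in naive input and 2377 to 2753 CPM in MECS input, where CPM is the count scaled to the library's gene counts, after TMM normalization. Own rows of Tmem119 (0 to 1 counts), C1qa (0 to 4) and Gad2 (0 to 8) were at or near 0. The ratio of U1 to input stood apart in naive pair 3: 9 of 30 members were above 0 in that pair (median log2 ratio -0.21), against 25 in naive pair 1 (0.16) and 27 in naive pair 2 (0.31). MECS pairs 1, 2 and 3 had 25, 11 and 24 members above 0, with medians of 0.25, -0.04 and 0.38.

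Most counts in a member lay on the pieces annotated inside it. The 33 own rows held 9855 counts over the 12 libraries, a median of 10.5 counts per kb of exon (range 0.546 to 433), whereas the 106 features inside held 201003 counts, a median of 1073 per kb (26.6 to 10996). Kcnip4 (433 per kb), Ctnna3 (273), Asic2 (229) and Kcnma1 (62.5) had the densest own rows. The features had no base in an exon of the member in 101 cases (84.7% of these counts), so their part inside the member is intronic. Whether their reads come from introns of the member was not tested. They comprised 11 provisional loci (class TEC of the annotation, 42.1% of counts), 29 antisense genes (17.0%) and 27 processed pseudogenes (15.6%), whose reads can be shared with their parent genes. Another 9 were protein-coding genes nested in the member (12.8%), such as Lrrtm1 in Ctnna2, Flrt3 in Macrod2, Lrrn3 in Immp2l and Cstf2t in Prkg1. How strand was handled in counting is not stated in the labels or headers, and reads of a nested gene cannot be told apart from reads of its host. Of the 106 features, 4 also have over 10% of their exon bases inside another opposite-strand gene. Among them are Gm43047 (48.5% of the counts of Kcnip4), also inside Gm43046, and Gm45161 (23.7% of those of Dlg2), also inside Gm45159. Their reads cannot be assigned to the member alone.

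Some of these pieces carry, on the strand of the member, the letters that U1 and the polyadenylation machinery recognise. Of 63 single-exon features inside members (54252 bases), 10 held GTAAGT, the 5′ splice site letters that pair with U1 RNA, once each, and 15 held AATAAA, the polyadenylation signal, 36 times in all. The windows below are shown because they lie in 4 of the best-covered or longest members, with the motif in capitals, read 5′ to 3′ on the member's strand from the GENCODE M21 transcripts (GRCm38).
Nrxn3, Gm37980, chr12:89253991-89254050, plus strand: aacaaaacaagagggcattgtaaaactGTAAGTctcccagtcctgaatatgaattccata
Pcdh9, Gm48967, chr14:93622260-93622319, minus strand: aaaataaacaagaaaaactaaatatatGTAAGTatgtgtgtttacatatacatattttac
Dlg2, Gm45161, chr7:90886205-90886264, plus strand: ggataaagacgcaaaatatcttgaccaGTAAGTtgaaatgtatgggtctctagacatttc
Kcnip4, Gm43047, chr5:49071798-49071857, minus strand: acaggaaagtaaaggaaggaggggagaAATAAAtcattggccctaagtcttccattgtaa
Gm37980 has 23.0% of its overlap in exons of Nrxn3 and is not purely intronic. Gm48967 in Pcdh9 held 9 AATAAA and 1 GTAAGT, and Gm48964, also in Pcdh9, held 6 AATAAA. Both strands were searched. GTAAGT and AATAAA were counted separately, overlapping copies of AATAAA each count, and 2 of the copies in Gm48964 overlap. In the first 300 bases of the 36 member features long enough, 5.56% held GTAAGT on the member strand and 2.78% on the other, against 5.27 and 2.18% of all 2335 such features inside any opposite-strand gene. AATAAA stood in 5.56% on the member strand and 13.9% on the other, against 9.55 and 21.2%. GC content ran from 27.8 to 57.3%, with a median of 43.5%. A match is a description of letters, not of a site in use.

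Summed over all members, the features inside made up 1.04 to 1.54% of gene counts. They came to 12252 ± 684 CPM in naive input, 13450 ± 434 in MECS input, 12795 ± 2390 in naive U1 and 14573 ± 1366 in MECS U1 (SD, n = 3 each). The spread was widest in naive U1, which contains the library of naive pair 3. The 8 members with the highest sums held 72.1% of the counts, led by Kcnip4 (22.6%), Pcdh9 (10.6%), Asic2 (8.51%) and Nrxn3 (8.01%); a sum depends on how many exon bases happen to be annotated in a member and is not a level of the gene. Rbfox1, a splicing factor, Erbb4, a neuregulin receptor, and Grm7, a presynaptic glutamate receptor, hold no such feature, and their own rows had 5 to 15, 1 to 13 and 17 to 37 counts per library. Dmd, the dystrophin gene, holds 1 feature, Tsga8, with 1 to 14 counts, too few for the test; its own row had 8 to 35 counts.

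**Figure D1:**
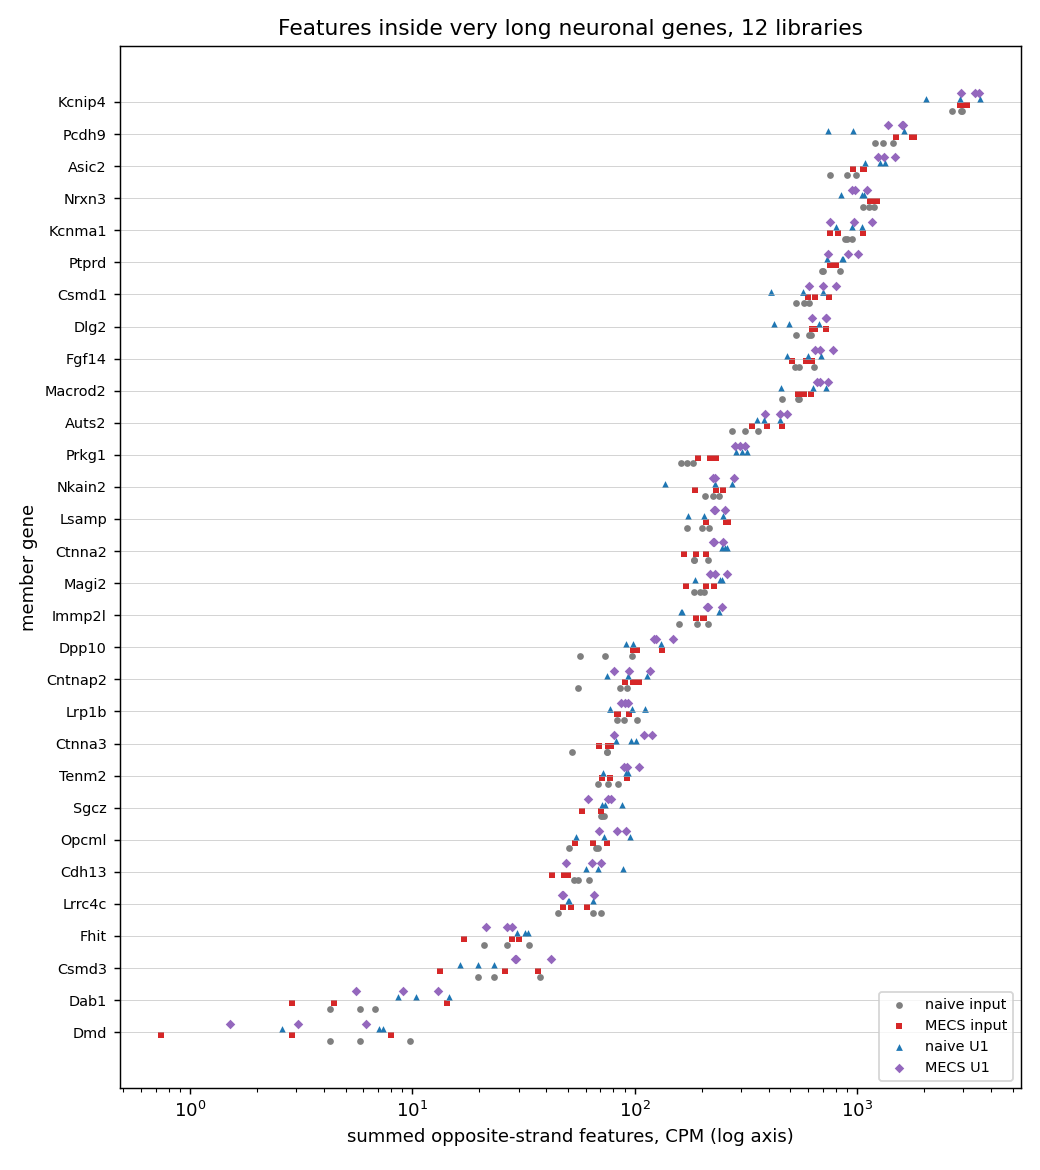
Summed CPM (log axis) of the opposite-strand features inside each of the 30 members that hold one, with 1 point per library and 1 colour and symbol for each of the 4 groups of 3. Prkg1 and Asic2 have both sets of U1 points to the right of the input points, while in Kcnip4, Pcdh9, Csmd1 and Dlg2 the leftmost point of all 12 is naive U1 3.

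Comparing U1 with input RNA asks which transcripts were recovered with U1-70K. Prkg1, the cyclic GMP-dependent protein kinase of nitric oxide signalling, and Asic2, a proton-gated sodium channel subunit, were the members higher in U1 RNA in naive brain and also in MECS brain. In naive brain these were 2 of 29 members tested, both higher and none lower, where 16.2% of the 3513 hosts tested were called, 7.03% higher and 9.14% lower. In MECS brain they were again 2 of 29, where 11.2% of 3599 hosts were called, 5.11% higher and 6.11% lower. The median log2 change of the members was 0.14 in naive brain (22 above 0, range -0.44 to 1.05) and 0.18 in MECS brain (25 above 0, -0.23 to 0.48), against 0.03 and 0.05 over all hosts. The share of members called higher was near that of all hosts.

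Prkg1 (chr19:30564489-31765033, minus strand) had 162, 171 and 183 CPM in naive input and 284, 320 and 304 CPM in naive U1. After MECS it had 217, 232 and 191 CPM in input and 283, 297 and 312 CPM in U1. Every U1 library exceeded every input library. The log2 change was 0.83 ± 0.15 (SE) in naive brain (edgeR adjusted p = 0.000127) and 0.48 ± 0.13 in MECS brain (edgeR adjusted p = 0.0194). Most counts came from Cstf2t, an intronless protein-coding gene for a cleavage stimulation factor subunit nested in Prkg1, which held 83.1% of the counts went from 139, 139 and 152 CPM in naive input to 226, 264 and 253 CPM in naive U1, and changed by 0.80 ± 0.16 (edgeR adjusted p = 0.000757) and 0.47 ± 0.14 (edgeR adjusted p = 0.0412). Without Cstf2t the change of Prkg1 was 0.96 ± 0.26 in naive brain (edgeR adjusted p = 0.00518) and 0.51 ± 0.22 in MECS brain (edgeR adjusted p = 0.166). In this alternative every host lost its largest feature, and p was adjusted over 779 hosts in naive and 792 in MECS brain. What remained of Prkg1 was AC110180.1 (578 counts) and Gm23426 (63 counts), so these values and those of AC110180.1 rest on mostly the same counts. The second piece, the single-exon AC110180.1, had 19.7, 27.5 and 28.6 CPM in naive input and 54.1, 49.8 and 47.6 CPM in naive U1, groups that do not overlap, and rose by 1.01 ± 0.26 (edgeR adjusted p = 0.00961; 0.0942 without naive input 1). The call in MECS brain was lost without MECS input 3, MECS U1 2 or MECS U1 3 (adjusted p up to 0.166 over all alternatives), while in naive brain no alternative with a value ended it (adjusted p 7.13e-06 to 0.00518). The own row of Prkg1 had 1 to 6 counts per library.

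As sums, markers of vascular cells moved the same way. Prkg1 is also a gene of smooth muscle, and 3 of 6 smooth muscle and pericyte markers with features inside summed to 242 to 405 CPM in naive input and 1355 to 2454 CPM in naive U1, and to 273 to 388 and 1228 to 1888 CPM after MECS. The own rows of all 6 summed to 252 to 261 and 345 to 452 CPM in naive input and U1, and to 240 to 288 and 287 to 316 CPM after MECS. Features inside Nos3, the endothelial nitric oxide synthase gene, went from 227 to 264 CPM in naive input to 600 to 1114 CPM in naive U1. Features inside the astrocyte gene Slc1a2 went the other way, from 4011 to 6227 CPM in naive input to 1056 to 1234 CPM in naive U1. Own rows of the 8 neuronal markers did too, summing to 258 to 469 CPM in naive input and 93.1 to 197 CPM in naive U1. Those of 6 oligodendrocyte markers summed to 482 to 721 and 264 to 281 CPM. Features inside neuronal markers overlapped, at 1944 to 2260 and 1710 to 2298 CPM. Input and U1 RNA came from the same lysates, and most Prkg1 counts came from the nested gene Cstf2t. The part of vascular cells in the Prkg1 result was not tested.

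Asic2 (chr11:80880169-81968457, minus strand) had 756, 899 and 989 CPM in naive input and 1267, 1334 and 1081 CPM in naive U1. After MECS it had 955, 1076 and 1058 CPM in input and 1321, 1240 and 1475 CPM in U1, again without overlap. The log2 change was 0.48 ± 0.14 in naive brain (edgeR adjusted p = 0.0182) and 0.39 ± 0.12 in MECS brain (edgeR adjusted p = 0.0401). Of its 5 features, 2 antisense genes passed the test alone in naive brain. Gm11418 went from 69.3, 66.6 and 88.0 to 117, 131 and 106 CPM (0.66 ± 0.19, edgeR adjusted p = 0.0209). 4930527B05Rik went from 83.8, 106 and 109 to 155, 161 and 125 CPM (0.57 ± 0.18, edgeR adjusted p = 0.0401) and was called in MECS brain too (0.60 ± 0.18, edgeR adjusted p = 0.0348). The piece with 62.0% of the counts, 5530401A14Rik, had 469, 598 and 665 CPM in naive input and 809, 822 and 691 CPM in naive U1 without passing the test. The call for Asic2 was lost without naive input 1, naive input 2, naive U1 1 or naive U1 2, and in MECS brain without any 1 of 5 of the 6 libraries (all but MECS U1 2), as well as with library sizes alone, TMM factors from hosts and all 12 libraries in 1 fit. Its own row, with 49 to 123 counts, had log2 changes of -0.24 and -0.12, neither called.

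**Figure D2:**
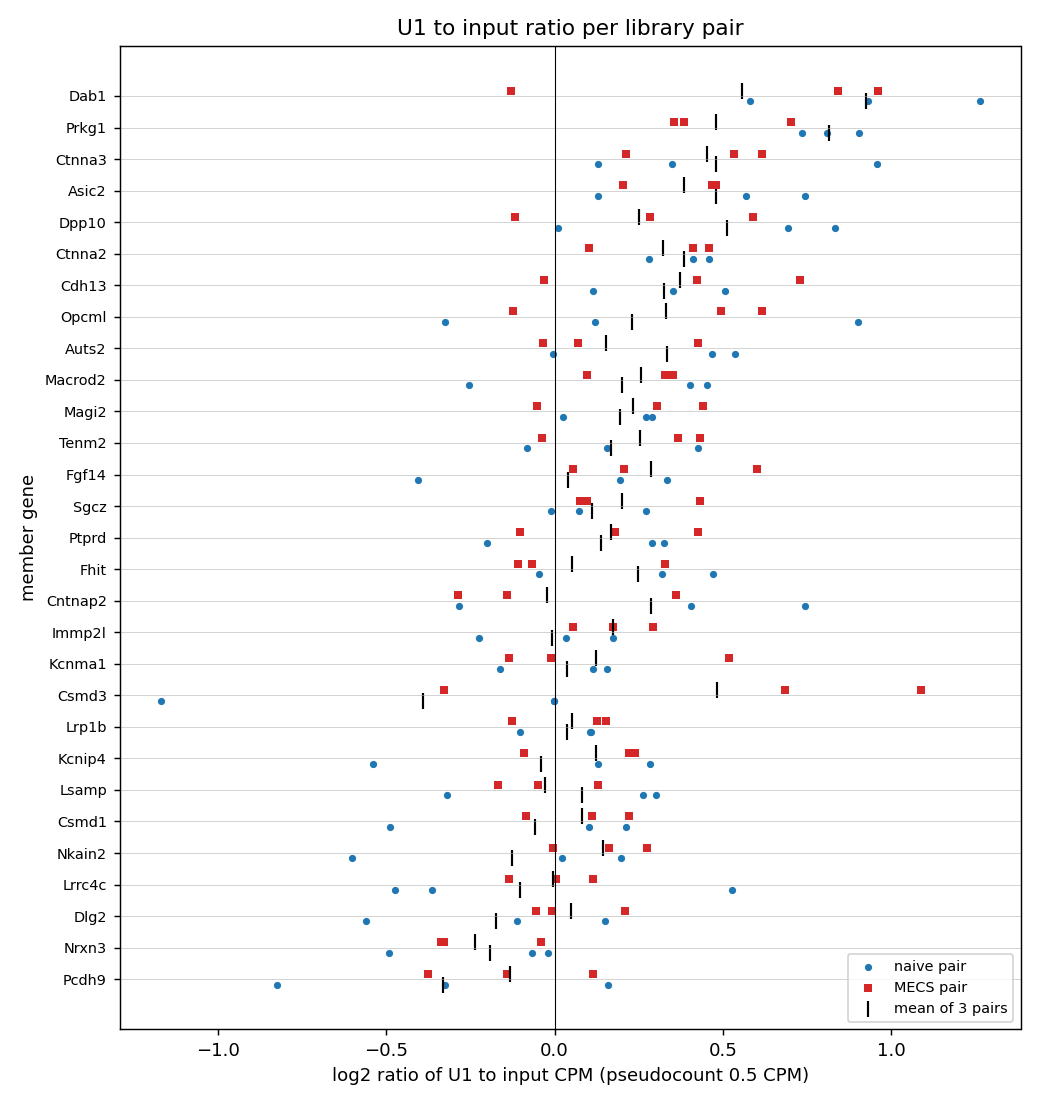
Log2 ratio of U1 to input CPM (pseudocount 0.5 CPM) in each of 3 naive pairs of libraries (circles) and 3 MECS pairs (squares) for 29 members, ordered by their mean over 6 pairs; ticks are means of 3 pairs. Prkg1 lies between 0.35 and 0.90 in all 6 pairs, and the circle of naive pair 3 is the leftmost in most of the lower rows, for example at -0.83 in Pcdh9.

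Non-coding pieces of Prkg1, Asic2, Ptprd and Fgf14 that were called alone are shown as 120 bases of their longest exon, read 5′ to 3′ on the member's strand (GENCODE M21, GRCm38), because they are part of the annotated stretches on which these differences were measured. The counts of 4930527B05Rik (3 exons) and Gm11418 (4 exons) came from all their exons. Called pieces of Auts2 and Kcnip4 are not shown. Only the longest exon of each piece shown was searched. Neither GTAAGT nor AATAAA occurs in these 5 exons on that strand, so no letters are in capitals. Gm11246 and Gm49071 are processed pseudogenes, whose reads can be shared with parent genes. The nested coding gene Cstf2t of Prkg1, also called alone, is not shown; on the strand of Prkg1 it holds 3 AATAAA and no GTAAGT.
Prkg1, AC110180.1, chr19:31112976-31113095, minus strand: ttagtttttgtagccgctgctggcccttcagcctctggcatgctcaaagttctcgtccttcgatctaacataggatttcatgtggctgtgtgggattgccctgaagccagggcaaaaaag
Asic2, 4930527B05Rik, chr11:81385150-81385269, minus strand: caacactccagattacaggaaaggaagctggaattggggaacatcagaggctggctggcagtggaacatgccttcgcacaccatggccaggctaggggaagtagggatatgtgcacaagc
Asic2, Gm11418, chr11:81593359-81593478, minus strand: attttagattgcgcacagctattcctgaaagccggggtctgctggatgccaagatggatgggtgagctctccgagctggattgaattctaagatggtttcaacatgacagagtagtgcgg
Ptprd, Gm11246, chr4:76927536-76927655, minus strand: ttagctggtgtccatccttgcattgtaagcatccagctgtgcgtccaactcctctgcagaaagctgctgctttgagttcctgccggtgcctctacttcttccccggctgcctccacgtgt
Fgf14, Gm49071, chr14:124532284-124532403, minus strand: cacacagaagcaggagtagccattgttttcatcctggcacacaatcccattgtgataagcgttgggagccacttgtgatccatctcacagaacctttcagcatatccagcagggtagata
Over single features, 7 of the 88 tested inside members were called in naive brain (6 higher, 1 lower), where 10.5% of all 10867 features were called, 4.20% higher and 6.30% lower. In MECS brain 4 of 90 were called, all higher, where 8.42% of 11009 were called, 3.27% higher and 5.15% lower.

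Single pieces of other members were called without the whole member; differences between pieces of 1 gene were not tested. In Ptprd, a receptor tyrosine phosphatase of synapse formation, Gm11246 rose from 36.8, 36.2 and 56.4 CPM in naive input to 88.5, 75.5 and 64.8 CPM in naive U1 (0.79 ± 0.23, edgeR adjusted p = 0.0214), while the whole of Ptprd changed by 0.14 ± 0.14. In Auts2, a transcriptional regulator of neuronal development, 2810432F15Rik rose from 63.3, 97.0 and 103 to 145, 139 and 119 CPM (0.63 ± 0.20, edgeR adjusted p = 0.0343). In Kcnip4, which codes for a partner of A-type potassium channels, 5730480H06Rik fell by 0.68 ± 0.21 in naive brain (edgeR adjusted p = 0.0297), from 144, 114 and 112 to 87.2, 91.6 and 51.0 CPM. It is a nested protein-coding gene with 63.4% of its exon bases inside Kcnip4, 1111 kb from the start, and its call was lost without naive input 1 or naive U1 3, with library sizes alone (edgeR adjusted p = 0.0616) and with DESeq2 (adjusted p = 0.0577). In the same gene Gm10025 rose in MECS brain, from 85.5, 104 and 95.2 to 160, 121 and 142 CPM (0.58 ± 0.17, edgeR adjusted p = 0.0307). In Fgf14, an intracellular partner of sodium channels, Gm49071 rose in MECS brain from 208, 186 and 109 to 275, 235 and 296 CPM (0.68 ± 0.18, edgeR adjusted p = 0.0195). That call was lost without MECS input 3, MECS U1 1 or MECS U1 3. Gm11246 and Gm49071 are annotated as processed pseudogenes and Gm10025 as a pseudogene, so their reads can be shared with parent genes. Whether these changes belong to the member or to a parent gene was not tested. Each of the 11 single-feature calls was lost on leaving out at least 1 library, except that of Cstf2t in naive brain, and 8 of the 11 were lost with DESeq2 (5 of 7 in naive, 3 of 4 in MECS brain). With a block for pairs of U1 and input libraries, 2810432F15Rik (edgeR adjusted p = 0.0544) and 4930527B05Rik (edgeR adjusted p = 0.0626) were not called in naive brain, while Gm11418 (edgeR adjusted p = 0.0236) and 5530401A14Rik (edgeR adjusted p = 0.0227) of Asic2 were called in MECS brain. The naive call of 4930527B05Rik was lost under 9 of 15 alternatives.

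The members grouped as adhesion and guidance, with Csmd1, Csmd3 and Nkain2 among them, were not called in either state (0 of 12, edgeR; median log2 change 0.05 in naive and 0.12 in MECS brain). Pcdh9, a protocadherin, had 1197, 1447 and 1306 CPM in naive input and 956, 1615 and 737 CPM in naive U1. The U1 libraries spanned the input libraries on both sides, and the change was -0.24 ± 0.19; without naive U1 2 it was -0.64 and called (edgeR adjusted p = 0.00393). Nrxn3, a presynaptic neurexin, had 1128, 1064 and 1194 CPM in naive input, 1076, 1050 and 849 CPM in naive U1, 1227, 1201 and 1139 CPM in MECS input and 977, 950 and 1108 CPM in MECS U1. Its changes were -0.18 ± 0.14 and -0.23 ± 0.11, the latter the lowest of the 29 members in MECS brain, with edgeR adjusted p of 0.464 and 0.239. Of its counts, 98.1% came from Gm37980. Ptprd had 701, 691 and 836 CPM in naive input, 856, 865 and 728 CPM in naive U1, 805, 796 and 752 CPM in MECS input and 911, 741 and 1011 CPM in MECS U1, groups that overlap. Csmd1, a large complement-control protein, had 530, 604 and 577 CPM in naive input, 569, 700 and 411 CPM in naive U1, 603, 643 and 744 CPM in MECS input and 704, 607 and 803 CPM in MECS U1, also with overlap.

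Among junction genes, none of the 3 tested passed, although Ctnna2, the neuronal alpha-catenin, was higher in U1 in 6 of 6 pairs (0.38 ± 0.15 in naive brain, edgeR adjusted p = 0.0841, and 0.0348 with library sizes alone; 0.32 ± 0.14 in MECS brain, edgeR adjusted p = 0.158). All its counts came from Lrrtm1, a nested synaptic adhesion gene. Ctnna3 had 0.46 ± 0.20 and 0.48 ± 0.18, with edgeR adjusted p of 0.137 and 0.115 (0.0356 in MECS brain with the pair as a block). Dlg2, the postsynaptic scaffold PSD-93, had 532, 604 and 620 CPM in naive input and 493, 670 and 420 CPM in naive U1, and changed by -0.14 ± 0.16. Of the genes for channels and their partners, Kcnip4 had 2657, 2912 and 2971 CPM in naive input and 2909, 3547 and 2043 CPM in naive U1, a change of 0.00 ± 0.16. In MECS brain it had 2901, 3130 and 2996 CPM in input and 3380, 2942 and 3537 CPM in U1 (0.13 ± 0.12). Kcnma1, the large-conductance calcium-activated potassium channel, had 947, 879 and 898 CPM in naive input and 1056, 952 and 803 CPM in naive U1 (0.05 ± 0.14), with overlap. Of these, Kcnip4 and Dlg2 had their lowest value of all 12 libraries in naive U1 3. The signalling adaptor Dab1 had the largest naive value of any member, 1.05 ± 0.45 (edgeR adjusted p = 0.129), on 3 to 29 counts per library. The receptor Lrp1b and the enzymes Macrod2, Fhit and Immp2l were not called, at 0.05, 0.23, 0.27 and 0.04 in naive brain. None of the own rows of members was called in any of the 5 comparisons, with 18 to 21 tested.

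MECS against naive asks how these transcripts stood 90 min after a convulsion. No member passed the test in input RNA (0 of 28, edgeR; 3 at an unadjusted p under 0.05; 0 with DESeq2 or limma-voom), where 1.74% of 3453 hosts were called, 50 of them higher and 10 lower. At an unadjusted p under 0.05 there were 415 hosts. In U1 RNA no member passed either (0 of 29, edgeR; 3 at an unadjusted p under 0.05; 0 with DESeq2 or limma-voom), where 0.443% of 3611 hosts were called, all higher, and 474 had an unadjusted p under 0.05. The members at an unadjusted p under 0.05 were thus no larger a share than the hosts. Leaving out 1 library gave 12 to 87 hosts called in input (12 without naive input 2) and 2 to 114 in U1 (114 without naive U1 2). In bulk tissue, fewer cells of a type and less RNA per cell cannot be told apart. The hosts higher and lower in input were 1.45 and 0.29% of those tested. Of single features inside members, 0 of 88 were called in input and 0 of 90 in U1, where 0.605% of all features were called in input (0.509% higher, 0.096% lower) and 0.384% in U1 (0.331% higher, 0.0536% lower). The median log2 change of the members was 0.05 in input (18 above 0, range -0.30 to 0.50) and 0.12 in U1 (21 above 0, range -0.38 to 0.72), against 0.01 and 0.04 over all hosts. Without naive U1 3 the U1 median was 0.03, with 15 members above 0.

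Pcdh9 had the smallest p of the members in input. It had 1486, 1791 and 1760 CPM in MECS input, above its 1197 to 1447 CPM in naive input without overlap, a change of 0.33 ± 0.13 (edgeR adjusted p = 0.244). In U1 RNA it had 1610, 1381 and 1595 CPM after MECS, within the span of the naive libraries, a change of 0.45 ± 0.20 (edgeR adjusted p = 0.346). Dpp10, another partner of A-type potassium channels, had 73.6, 56.5 and 97.0 CPM in naive input and 102, 132 and 98.1 CPM in MECS input (0.50 ± 0.20, edgeR adjusted p = 0.279). Its groups met within about 1 CPM but did not overlap. In U1 RNA it had 131, 91.6 and 97.7 CPM in naive and 125, 122 and 148 CPM in MECS brain, with overlap. Auts2 was the third member at an unadjusted p under 0.05 in input (0.31 ± 0.15, edgeR adjusted p = 0.415).

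In U1 RNA the smallest p belonged to Csmd3, a relative of Csmd1, with 19.7, 23.2 and 16.4 CPM in naive and 28.8, 29.1 and 42.1 CPM in MECS brain (0.72 ± 0.27, edgeR adjusted p = 0.239), on 16 to 68 counts per library and without overlap. In input it had 19.7, 23.2 and 37.6 CPM in naive and 13.3, 36.6 and 26.0 CPM in MECS brain, with overlap. Dlg2 had 493, 670 and 420 CPM in naive U1 and 726, 624 and 721 CPM in MECS U1 (0.37 ± 0.16, edgeR adjusted p = 0.317), against 628, 648 and 725 CPM in MECS input. Without naive U1 2, the deepest library, Pcdh9 (0.86 ± 0.16, edgeR adjusted p = 0.00653) and Dlg2 (0.60 ± 0.15, edgeR adjusted p = 0.0309) were called higher in MECS U1. Kcnma1 had 1061, 758 and 815 CPM in MECS input and 965, 752 and 1166 CPM in MECS U1, each spanning its naive libraries on both sides. Its changes were -0.07 ± 0.13 and 0.02 ± 0.16.

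**Figure D3:**
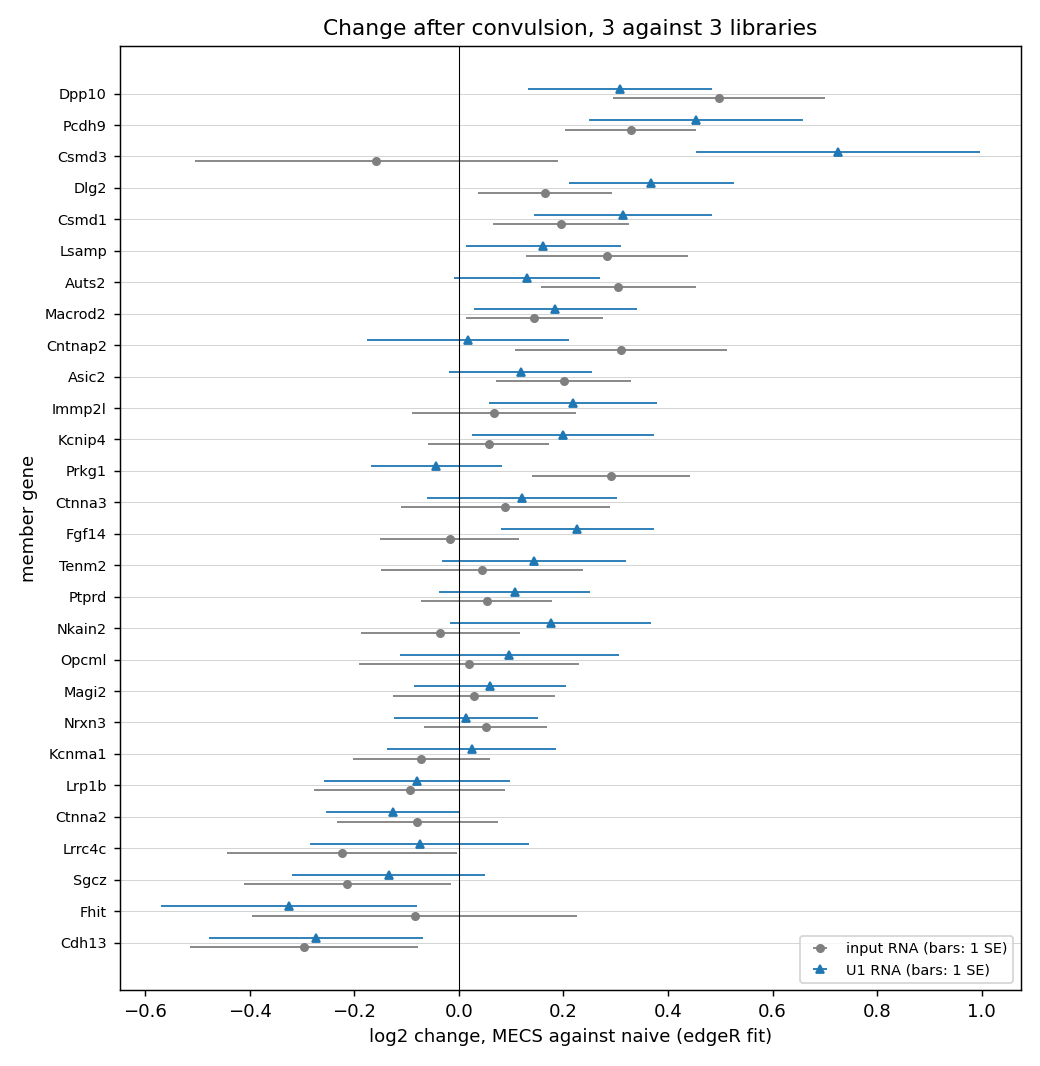
Log2 change from naive to MECS for 28 members in input RNA (circles) and U1 RNA (triangles), 3 against 3 libraries, with bars of 1 SE from the edgeR fit. Most points lie within 2 SE of 0; Dpp10 (0.50 in input), Pcdh9 (0.33 and 0.45) and Csmd3 (0.72 in U1) lie farthest to the right, and no member passed the adjusted threshold of 0.05.

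The change of the U1 to input ratio with MECS was tested as an interaction over 12 libraries. None of 29 members passed (edgeR; none at an unadjusted p under 0.05; 0 with DESeq2 or limma-voom), and 0% of 3737 hosts were called, with 116 at an unadjusted p under 0.05. Prkg1, whose ratio was higher in each naive pair (0.81, 0.90 and 0.73) than in each MECS pair (0.39, 0.35 and 0.70), had an interaction of -0.34 ± 0.19, and Csmd3 had 0.87 ± 0.46, both at an edgeR adjusted p of 0.999. The median over members was 0.03 with 19 above 0; without naive U1 3 it was -0.07, without MECS U1 3 it was -0.04, and with library sizes alone it was -0.04. The sign of this small median thus turned on leaving out either of these libraries and with the scaling. Of the 92 single features tested inside members, 0 were called.

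Other long hosts were read from the same fit, with no test of a difference from the members. The 180 other hosts of at least 500 kb had medians of 0.09 (MECS, input), 0.13 (MECS, U1), 0.13 (U1 against input, naive), 0.13 (U1 against input, MECS) and 0.02 (interaction). Of them, 9 of 149 were higher and 6 lower in naive U1, and 8 of 154 higher and 4 lower in MECS U1; 1 of 148 and 1 of 155 were higher after MECS in input and U1. A list of 97 other long neuronal genes, with Ank2 and Grin2b among them, had 3 higher and 6 lower of 69 tested in naive U1, 2 higher and 5 lower of 74 in MECS U1, and none after MECS. Span and log2 change across members correlated, as a description over 28 to 29 genes measured in the same libraries, at Spearman's rho of 0.05, -0.09, -0.17, -0.36 and -0.12 in the order above (Pearson's r 0.12, -0.05, -0.11, -0.34 and -0.11).

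Features were then ordered by the distance of their nearest exon end from the annotated start of the member. Under 100 kb from the start lay 7 features in 7 members, between 100 and 500 kb 28 in 16, and at 500 kb or beyond 71 in 27. These 3 classes held 34815, 67921 and 98267 counts, and their shares of member counts ran over the 12 libraries from 15.5 to 19.5%, 29.5 to 35.5% and 47.6 to 51.0%. Median density was 2332, 949 and 1152 counts per kb of exon.

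Within a gene, density tended to be higher near the start, but not in every member. In Kcnip4 it was 6135 per kb at 98.1 kb (Gm43670), 6366 at 451 kb (Gm43047), 2381 at 858 kb and 179 at 1111 kb. The last is the nested coding gene 5730480H06Rik, whose density uses all its exon bases though only a part lies inside Kcnip4. In Fgf14 it went from 10996 per kb at 87.8 kb (Olfr277-ps1) to 1203 at 661 kb and 1888 at 697 kb (Gm28932). Kcnma1 went from 4577 per kb at 6.16 kb to 687 at 693 kb. Its first piece, 4930519K11Rik, is annotated as a bidirectional promoter lncRNA. In Magi2 the first piece had 1002 per kb at 277 kb and the last 2688 at 1034 kb, but Gm25335 (103 bases) already had 2660 at 288 kb. Csmd3 was higher far from the start, with 406 per kb at 241 kb and 2526 at 991 kb. Asic2 differed little along its length, from 2332 per kb at 73.9 kb (5530401A14Rik) to 1628 at 920 kb (Gm11416). Dlg2 and Immp2l started low, at 113 per kb (335 kb) and 79.4 per kb (17.7 kb), and had their peaks at 650 and 324 kb. Over 93 features of members with at least 3, deviations from the member's mean log2 density and distance gave r = -0.42 and rho = -0.49 (-0.40 and -0.47 with the read length added to the exon length, a check chosen after seeing the data); without removing the member's mean, over 106 features, r was -0.18. These are correlations across features of the same libraries, features are not replicates, and pieces under 300 bases gain reads that hang over their ends.

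**Figure D4:**
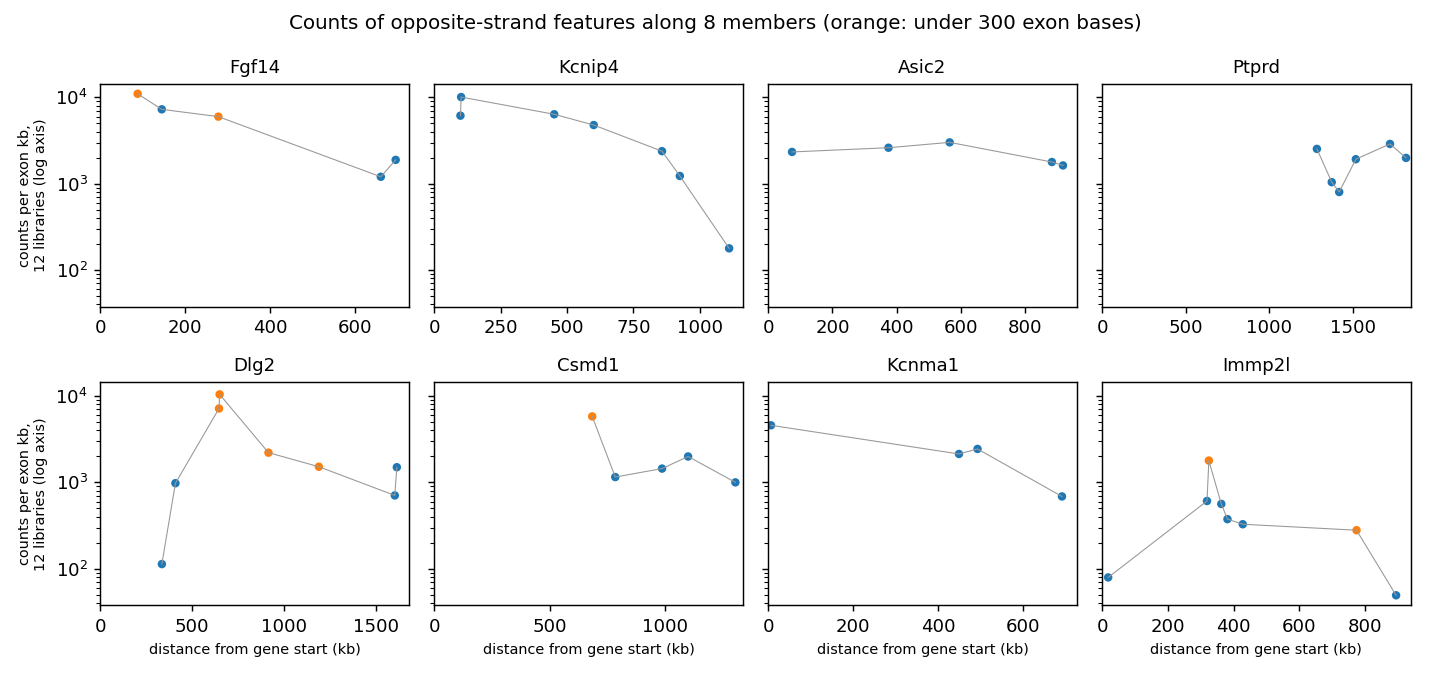
Counts per kb of exon over 12 libraries (log axis) of each opposite-strand feature against its distance from the gene start, for 8 members; orange points are features under 300 exon bases and lines join features of 1 gene. Points of Fgf14, Kcnip4 and Kcnma1 are lower far from the start, those of Asic2 stay between 1628 and 3012, and Dlg2 and Immp2l peak inside the gene.

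The U1 and MECS changes of the same features were also set against position. The median log2 change of U1 against naive input was 0.10, 0.21 and 0.18 in the near, middle and far class, and that of MECS against naive input was 0.01, 0.08 and 0.06. Correlations of the 5 log2 changes with distance lay between -0.21 and 0.12 (Pearson's r, 88 to 92 features). The far class minus the near class in the log2 ratio of U1 to input was -0.11 ± 0.09 in naive pairs (SD, n = 3; -0.21, -0.05 and -0.06) and -0.10 ± 0.11 in MECS pairs (0.03, -0.16 and -0.16), and in naive pairs it was 0.0053 with class borders at 50 and 250 kb. These ratios are of summed counts. Of 34815 near counts, Gm43670 of Kcnip4 held 10841, 5530401A14Rik of Asic2 10608, 4930519K11Rik of Kcnma1 9826 and Olfr277-ps1 of Fgf14 3134. With the border at 50 kb, 4930519K11Rik held 9826 of 9967. The values thus compare a few genes with many others, and not positions within a gene.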

How the data were processed

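The authors deposited 12 tables of whole-number counts per Ensembl gene, with no normalization. Per the submitters' processing notes, the tools were HISAT2 2.2.0, Salmon 1.4, StringTie 2.1.3, Trimmomatic 0.39, DESeq2 and FastQC, and the build mm10, with no roles stated; the sources used here do not give what counted the reads, or on which strand. Per the labels' protocols, reads were single-end, 100 bp, from a stranded total RNA kit with ribosomal RNA depletion. Of 55471 identifiers, 55230 matched GENCODE M21 (GRCm38, the assembly of mm10).

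Features inside an opposite-strand gene were summed per host, and all hosts were tested with edgeR 4.0.16 (R 4.3.3): quasi-likelihood F test, groups of the comparison only, filterByExpr, library sizes and TMM factors from single features, Benjamini-Hochberg at 0.05. SE is the log2 change divided by the square root of F. The script, tested on simulated data, called 26.9% of hosts changed by 0.5 (log2), 73.8% by 1 and 100% by 2 for MECS in input (3360 hosts), and 10.4, 73.0 and 100% for U1 against input in naive brain (3447 hosts). The simulated spread between libraries was a fixed value, not estimated from these data, and hosts with low counts were included. DESeq2 1.42.0 and limma 3.58.1 (voom) were alternatives, with other scalings, filters, feature rules and left-out libraries. Title prefixes pair U1 and input libraries; deviations from group means correlated at 0.02, -0.10 and -0.02 (naive) and 0.11, 0.22 and 0.12 (MECS).

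Values per library are given for members called in any comparison, the 8 with the highest CPM and the 2 with the smallest p per comparison; features are named where called, among the 5 highest, or first and last along a member. Members and lists were chosen with earlier results of these data known.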

Additional observations from a re-analysis of the deposited data

How the results depend on the processing

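Members called after MECS in input, and for the interaction, were 0 under every alternative run. In U1 RNA after MECS, 0 to 2 members were called on leaving out 1 library. For U1 against input in naive brain the count of 2 became 0 with own rows in place of the features inside, 3 with library sizes alone (Ctnna2 added), and 1 to 2 on leaving out 1 library. In MECS brain the count of 2 became 1 with library sizes alone, with TMM factors from hosts, with all 12 libraries in 1 fit and without each host's largest feature, 0 with own rows, and 0 to 1 on leaving out 1 library. Own rows could be tested for 21 members in naive and 18 in MECS brain. That of Prkg1 had too few counts for the test in both, so its call could not be kept with own rows. The own row of Asic2 had the opposite sign, at -0.24 ± 0.22 in naive and -0.12 ± 0.20 in MECS brain, neither called. With a replicate block 3 members were called in MECS brain (Ctnna3 added), the only call of a member it changed. Single features were refitted only where already called in any comparison or among those with the highest CPM. Among these the block ended 2 and added 2 calls, and the other features inside members were not refitted. Hosts called with the block were 161, 3, 615, 629 and 0 in place of 60, 16, 568, 404 and 0. The labels give no meaning to numbers shared by MECS and naive libraries. Deviations of such libraries correlated at 0.07, -0.03 and 0.00 in input and at 0.01, -0.01 and -0.10 in U1. Naive pairs with a shared prefix correlated no better, so these values cannot tell whether the numbers mark more than the sample. Hosts called after MECS also differed with library sizes alone (111 in input), no filter (105 in input, 148 in U1), and, in U1, all 12 libraries in 1 fit (66), DESeq2 (42) and limma-voom (9); leaving out 1 library gave 12 to 87 in input, 2 to 114 in U1, and 368 to 565 and 278 to 363 for U1 against input in naive and MECS brain. The far minus near ratio in naive pairs moved to 0.0053 with borders at 50 and 250 kb. The cause of these differences was not tested. At this depth and with 3 libraries a group, changes of 0.5 (log2) were mostly missed in simulated data with a fixed spread, over all hosts. In these data smaller changes were called in Asic2 (0.48 and 0.39) and Prkg1 (0.48 in MECS brain). The simulation therefore does not give the share missed among the members.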
